A study of Mus musculus with 6 samples.

Results

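The genes described here are 38 genes of the cell division cycle, chosen by symbol as a readout of S, G2 and M phase in cerebellar tissue, of 53746 genes in the count table. All 38 were found there. RNA from whole cerebella had been sequenced in 3 *N153S* LSL/LSL *Pcp2-cre* mice (Pcp2-cre mice) and 3 *N153S* LSL/LSL mice (control mice), all 2 months old, with mice 1 and 2 of each genotype male and mouse 3 female. Both genotypes carry the *Sting1* N153S knockin, a gain-of-function allele of the STING innate immune adaptor, behind a LoxP-flanked stop cassette, and only the Pcp2-cre mice carry the Cre that removes the stop. *Pcp2-cre* is active in Purkinje cells, so the design places mutant STING in these neurons, whereas the RNA came from every cell of the cerebellum. *Sting1* itself was higher in Pcp2-cre mice by a log2 fold change of 0.57 (SE 0.0969, adjusted p = 0.000359 by edgeR's quasi-likelihood test). The comparison asked whether transcripts of dividing cells were more abundant in the mutant cerebellum, where glial cells are among those that can divide.

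Cells enter the cycle when D-type cyclins activate CDK4 and CDK6, which frees E2F factors to switch on E-type cyclins and the genes of DNA replication. The MCM helicase is loaded at origins in G1, the nucleotide and DNA synthesis genes act in S phase, and a later wave of cyclins, kinases, kinesins and centromere proteins runs G2 and mitosis. In the adult cerebellum neurons no longer divide, granule cell progenitors are gone after the early postnatal weeks, and the cells that keep the ability to divide are mainly oligodendrocyte progenitors, microglia and other glia, and vascular cells. Many early cycle genes also have roles in cells that do not divide, whereas genes such as *Mki67* and *Top2a* are largely limited to cycling cells. A bulk value cannot tell more dividing cells from more RNA per dividing cell.

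Each library held between 6733178 and 10178218 counts, and 3 counts in a library, used as the floor of detection, were worth 0.297 to 0.447 CPM. CPM are counts scaled to a common library size (TMM), and this floor and all count intervals cover counting error only. The markers of Purkinje cells summed to between 7277 and 7917 CPM in control mice and to no more than 4617 CPM in Pcp2-cre mice, and those of granule cells to between 5875 and 6297 CPM over the 6 mice, so both cell types that define the tissue were present. Control mice 1 and 2 stood apart in choroid plexus genes, with summed levels of 832 and 1286 CPM against 35.5 CPM in control mouse 3 and 26.1 to 92.9 CPM in Pcp2-cre mice, so calls that changed without these 2 mice are given beside the results below. They are the only male controls, so a fit without them sets control mouse 3, a female, against Pcp2-cre mice of both sexes. Such a fit has no spread between control mice, and sex is not balanced between its genotypes. Genes were tested with edgeR after a filter on low counts, which left 16961 genes, and a gene was called where its p, adjusted by the Benjamini-Hochberg method, did not exceed 0.05 and its log2 fold change reached 0.5 in either direction.

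The cell cycle genes were expressed at very different levels, and most of the lowest were genes of mitosis. FPKM, which divides a gene's fragments by its exon length and the library size, is used for this ranking. *Pcna*, the sliding clamp of replicating DNA polymerase, had the highest level at 22.6 ± 0.870 FPKM (SD, n = 6 mice). *Cdk4*, a G1 kinase, followed with 21.4 ± 1.39 FPKM (SD, n = 6), within the spread of *Pcna*. *Ccnd3* and *Ccnd1* came next, *Ccnd1* with 10.7 ± 1.19 and then *Mcm7* with 8.78 ± 0.640 FPKM (SD, n = 6 each). At the other end were *Aurkb* with 0.0727 ± 0.0715, *Cdc6* with 0.0946 ± 0.0382 and *Bub1* with 0.102 ± 0.0392 FPKM (SD, n = 6 each), whose levels overlapped. *Mki67*, the antigen most used to stain cycling cells, ranked 34 of 38 with 0.141 ± 0.0922 FPKM (SD, n = 6). Of the 38 genes, 36 had at least 1 count in every mouse.

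**Figure D1:**
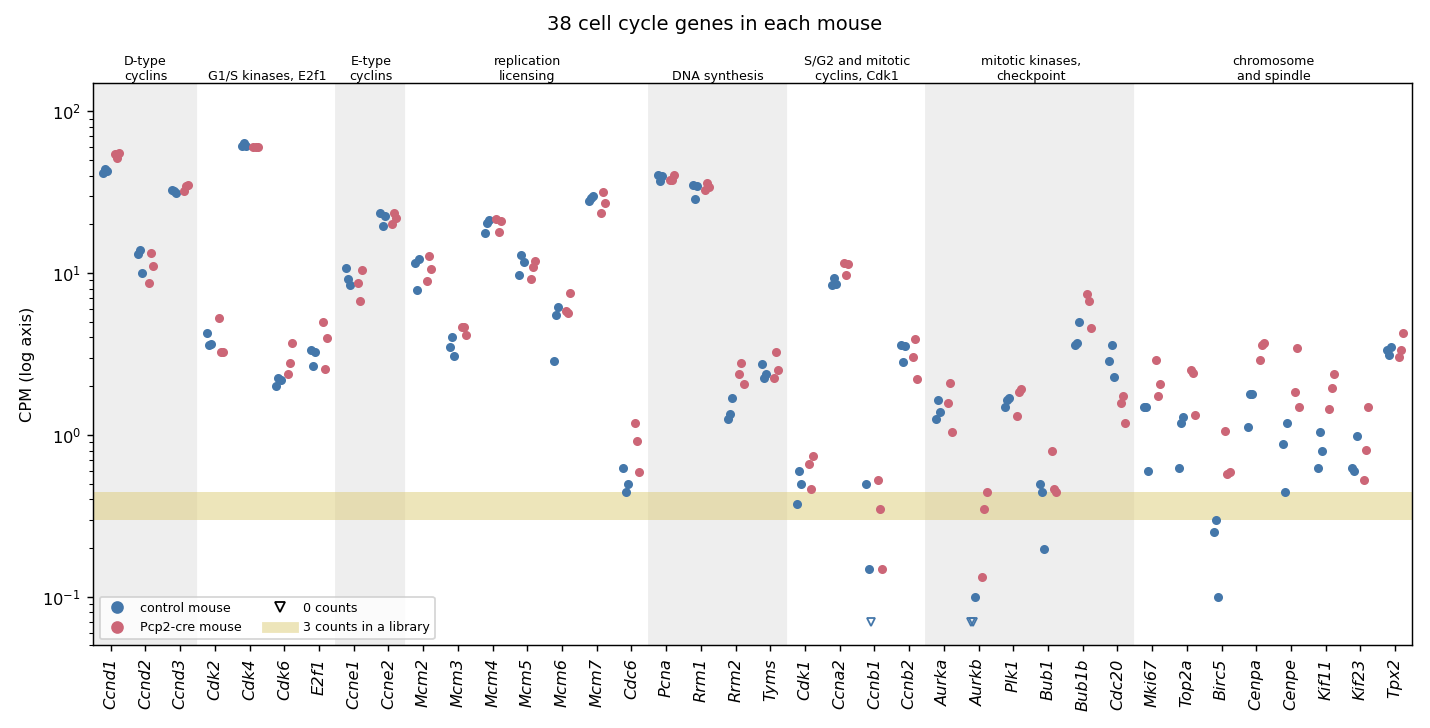
CPM of each of the 38 genes in each mouse on a log axis, ordered by role, with control mice in blue and Pcp2-cre mice in red, open triangles for 0 counts and a band for the value of 3 counts (0.297 to 0.447 CPM). *Aurkb*, *Ccnb1*, *Bub1* and *Birc5* have mice inside or below the band, whereas *Cdk4* lies near 60 CPM in all 6 mice.

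Between genotypes, 3 of the 38 genes were called higher and 0 lower. All 3, *Cenpa*, *Cenpe* and *Kif11*, belong to the 8 genes of chromosome and spindle. The filter on low counts left 31 of the 38 genes for testing, and 1.37% of all genes tested were called higher and 1.79% lower. The 7 that did not pass are *Cdc6*, *Cdk1*, *Ccnb1*, *Aurkb*, *Bub1*, *Birc5* and *Kif23*. The filter asked for about 1.27 CPM at plain library size in at least 3 mice. *Cenpe* and *Kif11* reached this in no control mouse, as was so for 69 of the 16961 genes. These genes therefore had to be higher in Pcp2-cre mice to be tested at all. *Cenpa* did not reach it in every control mouse, so it too was tested only with the help of its level in Pcp2-cre mice. A fit without the filter, which tests all 38 genes, called the same 3 higher and *Cdc20* lower. With DESeq2, with a choroid plexus score as a covariate, without control mouse 1 or without Pcp2-cre mouse 2 the count of genes called higher was 0, and without both control mice 1 and 2 it was 1, *Mki67*. At an unadjusted p under 0.05, 9 members were higher and 1 was lower, where 8.36% of all genes tested were higher and 9.67% lower. At an adjusted p of at most 0.05 whatever the fold, 4 members were higher and 0 lower, where 2.99% of all genes were higher and 4.75% lower.

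*Cenpa* encodes the histone H3 variant that marks the centromere (GRCm39 chromosome 5, 30824121 to 30842921, forward strand). Its counts in mice 1, 2 and 3, the order used throughout, were 9, 12 and 18 for control and 22, 31 and 25 for Pcp2-cre. Every Pcp2-cre mouse lay above every control mouse, and its mean level was 1.56 ± 0.382 CPM in control mice and 3.39 ± 0.432 CPM in Pcp2-cre mice (SD, n = 3 each). Its log2 fold change was 1.10 (SE 0.266, adjusted p = 0.0101 by edgeR's quasi-likelihood test), and it was called with a similar size on the FPKM values (log2 fold change 1.11 on log2(FPKM + 0.1), limma adjusted p = 0.0183). The call was lost without control mouse 1 (adjusted p = 0.0818), Pcp2-cre mouse 2 (adjusted p = 0.0698) or Pcp2-cre mouse 3 (adjusted p = 0.0596). It held in males alone (log2 fold change 1.18, adjusted p = 0.0415 by edgeR). Without control mice 1 and 2 the edgeR log2 fold change was 0.92 with an adjusted p of 0.193.

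*Cenpe* encodes a kinesin that moves chromosomes to the spindle equator (GRCm39 chromosome 3, 134918298 to 134979372, forward strand). Its counts were 7, 3 and 12 in control and 14, 30 and 10 in Pcp2-cre mice, or 0.873, 0.447 and 1.19 CPM against 1.84, 3.46 and 1.48 CPM. The genotypes did not overlap in CPM, but Pcp2-cre mouse 2 stood well above the other mice. Its log2 fold change was 1.39 (SE 0.391, adjusted p = 0.0310 by edgeR). With Pcp2-cre mouse 2 left out it fell to 0.91 with an adjusted p of 0.357, and the call was also lost without control mouse 1 (adjusted p = 0.110), control mouse 2 (adjusted p = 0.116), Pcp2-cre mouse 1 (adjusted p = 0.0516) or both control mice 1 and 2 (adjusted p = 0.373). In males alone *Cenpe* was called (log2 fold change 1.97, adjusted p = 0.0055 by edgeR). On log2(FPKM + 0.1) the difference of *Cenpe* was 0.53 with a limma adjusted p of 0.614, and the genotypes overlapped in FPKM. A stretch of 198 bases of its exons matches the processed pseudogene *Gm27190*, which had 0 counts in every mouse.

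*Kif11* encodes the kinesin that pushes spindle poles apart (GRCm39 chromosome 19, 37364799 to 37410307, forward strand). It had 5, 7 and 8 counts in control and 11, 17 and 16 counts in Pcp2-cre mice, with no overlap. Its log2 fold change was 1.23 (SE 0.356, adjusted p = 0.0357 by edgeR). The call was lost without control mouse 1 (adjusted p = 0.161), control mouse 3 (adjusted p = 0.0898), Pcp2-cre mouse 2 (adjusted p = 0.149) or Pcp2-cre mouse 3 (adjusted p = 0.164), and with control mice 1 and 2 left out (adjusted p = 0.267) or in males alone (adjusted p = 0.219). On log2(FPKM + 0.1) its difference was 0.56 with a limma adjusted p of 0.441.

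The other 5 genes of the chromosome and spindle list were not called. *Mki67*, which coats mitotic chromosomes, had 12, 10 and 6 counts in control and 22, 15 and 14 in Pcp2-cre mice. The groups did not overlap, and its log2 fold change of 0.96 (SE 0.356, 95% interval 0.22 to 1.70) had an adjusted p of 0.125 by edgeR. Without control mice 1 and 2 it was called, with a log2 fold change of 1.87 (adjusted p = 0.0435) against a single control mouse assumed to vary like the others. *Top2a*, the topoisomerase that untangles sister chromatids, had 5, 8 and 13 counts against 19, 21 and 9, which do not overlap in CPM. Its log2 fold change was 1.01 (SE 0.351, 95% interval 0.28 to 1.74) with an adjusted p of 0.0938, or 0.0292 in males alone. The intervals of both hold a doubling, and their lower ends are rises of 1.16 fold for *Mki67* and 1.21 fold for *Top2a*. These intervals are not adjusted for the number of genes tested and ran somewhat narrow on simulated counts. *Tpx2*, a spindle assembly factor, had 27, 21 and 35 counts in control and 23, 29 and 29 in Pcp2-cre mice, and its 95% interval of -0.38 to 0.54 lay under a doubling. *Birc5* (survivin, of the chromosomal passenger complex) was too low to test, with 2, 2 and 1 counts against 8, 5 and 4, a ratio of counts per library size of 3.67 with an exact 95% interval of 1.30 to 12.7. *Kif23*, a cytokinesis kinesin, had 5, 4 and 10 counts against 4, 7 and 10, with a ratio of 1.19 (exact 95% interval 0.610 to 2.34). Over the 31 tested genes the groups did not overlap with Pcp2-cre mice higher for 10 genes and lower for 2. Of all genes tested, 10.8% were apart in the higher and 11.4% in the lower direction. *Birc5* and *Aurkb*, both too low to test, were also apart in the higher direction.

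Summed over the 8 genes, the chromosome and spindle list reached 8.98, 9.98 and 10.2 CPM in the control and 16.2, 17.9 and 17.3 CPM in the Pcp2-cre group. The sums did not overlap, and their ratio was 1.76. It ranged from 1.70 to 1.81 with each mouse left out in turn. These sums rest on 67 to 103 counts per control mouse and 117 to 155 per Pcp2-cre mouse. The 6 tested genes of the list all had a log2 fold change above 0, with a median of 1.06, but the filter had a part in this. *Cenpe* and *Kif11* reached its level in no control mouse, and *Cenpa*, *Mki67* and *Top2a* not in every control mouse. Only *Tpx2* would have passed on the control mice alone. In the fit without the filter, which tests all 8 genes, the median was 1.05. The median over the 31 tested cell cycle genes was 0.08 and that over all genes tested 0.0045. The other 7 roles had ratios of summed CPM between 0.972 and 1.16.

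**Figure D2:**
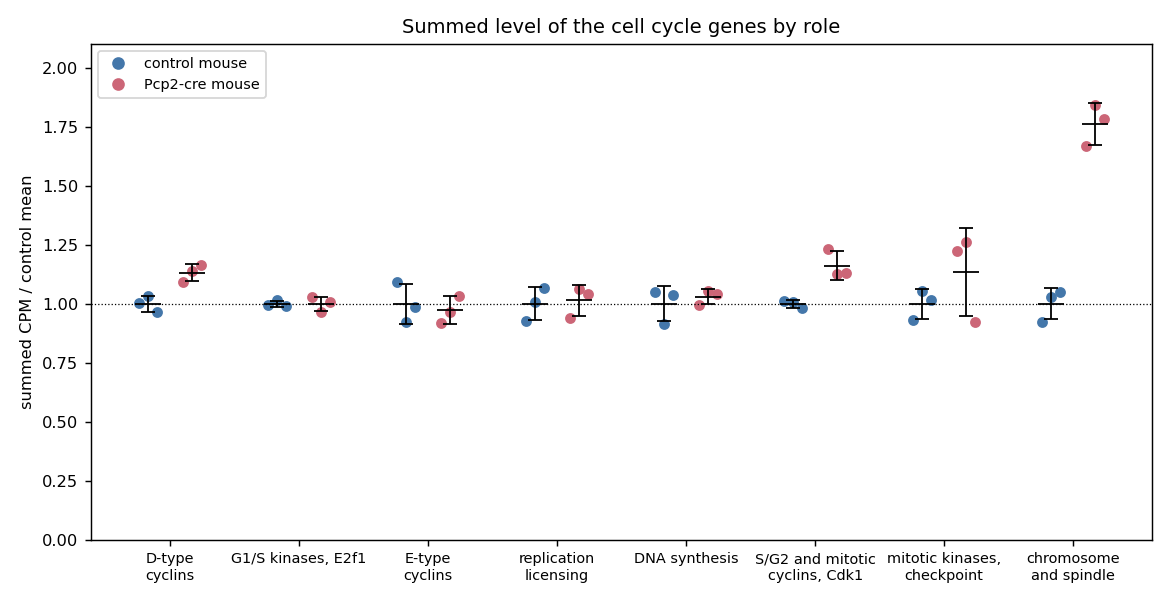
Summed CPM of each role list in each mouse, divided by the control mean of that list, with control mice in blue, Pcp2-cre mice in red and bars for the mean ± SD of 3 mice. The chromosome and spindle genes are the list with the widest gap between genotypes (ratio 1.76), and the G1 and S kinases with *E2f1* lie at their control mean.

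Promoter sequence is shown for the 3 genes called higher and for *Cdc20*, the member with the largest difference in the other direction, because genes of G2 and M phase are known to share 2 promoter elements. These are the cell cycle genes homology region (CHR, searched as TTTGAA or TTCGAA), bound by the DREAM and MuvB complexes, and the CCAAT box bound by NF-Y (searched as CCAAT). Both were searched on both strands in RefSeq windows of 300 bases, 250 before to 50 after each annotated start, and the 2 motifs do not overlap in letters. The 280 bases from 250 before to 30 after the start are printed 5′ to 3′ along the gene's strand with coordinates of GRCm38.p6, a build whose positions are not those of GRCm39 given above, and capitals mark a CHR (TTTGAA, or TTCAAA where it lies on the opposite strand) or a CCAAT box (CCAAT, or ATTGG on the opposite strand).
*Cenpa* (chr5:30666636-30666915, forward strand): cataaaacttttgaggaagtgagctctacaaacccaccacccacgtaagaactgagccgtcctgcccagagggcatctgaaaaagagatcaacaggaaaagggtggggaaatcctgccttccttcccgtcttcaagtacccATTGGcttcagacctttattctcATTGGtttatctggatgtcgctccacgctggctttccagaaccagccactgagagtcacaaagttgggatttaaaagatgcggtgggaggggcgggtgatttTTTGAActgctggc
*Cenpe* (chr3:135212313-135212592, forward strand): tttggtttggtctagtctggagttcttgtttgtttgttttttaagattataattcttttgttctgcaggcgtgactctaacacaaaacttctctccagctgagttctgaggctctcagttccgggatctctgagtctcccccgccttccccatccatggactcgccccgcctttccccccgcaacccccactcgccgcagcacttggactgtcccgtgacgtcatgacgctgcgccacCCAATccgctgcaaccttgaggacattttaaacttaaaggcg
*Kif11* (chr19:37376132-37376411, forward strand): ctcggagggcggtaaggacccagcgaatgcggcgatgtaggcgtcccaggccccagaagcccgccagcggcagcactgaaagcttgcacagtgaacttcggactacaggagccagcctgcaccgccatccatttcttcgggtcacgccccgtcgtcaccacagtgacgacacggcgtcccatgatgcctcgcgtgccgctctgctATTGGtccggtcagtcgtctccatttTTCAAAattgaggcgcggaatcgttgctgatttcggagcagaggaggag
*Cdc20* (chr4:118437314-118437593, reverse strand): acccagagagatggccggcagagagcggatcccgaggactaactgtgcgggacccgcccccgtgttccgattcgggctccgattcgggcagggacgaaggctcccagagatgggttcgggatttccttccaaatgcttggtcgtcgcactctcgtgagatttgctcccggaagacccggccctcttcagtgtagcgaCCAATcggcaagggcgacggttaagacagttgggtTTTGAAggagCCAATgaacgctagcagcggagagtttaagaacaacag
With the start as +1, *Cenpa* holds a CHR at 17 and CCAAT boxes beginning at -109 and -86. *Kif11* holds a CHR at -19 and a CCAAT box at -45, whereas *Cenpe* holds in this window a CCAAT box at -12 and no CHR in these letters. *Cdc20* holds a CHR at -18 between CCAAT boxes at -53 and -8. The 3 genes called higher and *Cdc20* thus all hold a CCAAT box, and 3 of these 4 hold a CHR. A window was found for 31 of the 38 genes, and 14 of the 31 held a CHR, 24 a CCAAT box and 14 both. Among all 32851 RefSeq windows, 19.2% held a CHR, 37.4% a CCAAT box and 7.53% both. An E2F site, searched as TTTGGCGC, TTTCGCGC, TTTCCCGC or TTTGCCGC on both strands, was present in 7 of the 31, namely *Cdc6*, *Cdk1*, *Cdk2*, *Mcm3*, *Mcm5*, *Mcm6* and *Mcm7*, and in 2.27% of all windows. None of these 7 was called, but *Cdc6* and *Cdk1* had not passed the filter and were not tested.

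The D-type cyclins, which couple growth signals to the start of the cycle, held the member with the lowest adjusted p. *Ccnd1*, cyclin D1, had 333, 294 and 430 counts in control and 412, 444 and 372 in Pcp2-cre mice, or 42.6 ± 1.12 CPM against 53.5 ± 2.00 CPM (SD, n = 3 each). The groups did not overlap. Its log2 fold change was 0.33 (SE 0.0642, adjusted p = 0.00167 by edgeR), under the fold threshold, and the adjusted p over the 6 fits that omit a mouse stayed between 0.00345 and 0.0155. Without both control mice 1 and 2 it was 0.0248. On the FPKM values the difference was 0.25 to 0.27 and the limma adjusted p 0.0842 to 0.133. Exons of *Ccnd1* (chromosome 7 of GRCm39, 144483668 to 144493662, reverse strand) overlap those of *LTO1* on the opposite strand over 2315 of 4783 bases, and whether reads were counted by strand is not given in the sources used here, so reads of the pair may not have been separated. *LTO1* had 308, 282 and 405 counts in control and 347, 370 and 282 in Pcp2-cre mice, with a log2 fold change of 0.11 (adjusted p = 0.439 by edgeR). *Ccnd2*, with 105, 93 and 101 counts against 66, 115 and 75, had a log2 fold change of -0.13 (SE 0.155), and *Ccnd3*, with 261, 216 and 316 against 243, 300 and 237, had 0.08 (SE 0.0743). Neither passed the test.

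The G1 and S kinases, *E2f1* and the E-type cyclins, which drive the step from G1 into S phase, held no called gene. *Cdk4* had 489, 426 and 617 counts in control and 457, 520 and 408 in Pcp2-cre mice, and its interval of -0.15 to 0.08 on the log2 scale was the narrowest of the 31 tested genes. All 3 of its Pcp2-cre CPM values lay just under the control values. *Cdk6*, the partner kinase of *Cdk4*, had 16, 15 and 22 counts against 18, 24 and 25, with a log2 fold change of 0.45 (95% interval -0.09 to 0.98, adjusted p = 0.390). *Cdk2*, the kinase of cyclins E and A, had 0.03 (95% interval -0.45 to 0.51). *E2f1*, the transcription factor of S phase genes, had 0.28 (95% interval -0.24 to 0.80). *Ccne1* had -0.14 (SE 0.167) and *Ccne2* -0.01 (SE 0.0962), with 188, 132 and 227 counts of *Ccne2* in control and 152, 204 and 148 in Pcp2-cre mice.

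The replication genes gave no call. Of the helicase subunits, *Mcm7* had 222, 196 and 302 counts in control and 179, 275 and 184 in Pcp2-cre mice, with a log2 fold change of -0.07 (95% interval -0.27 to 0.13). *Mcm2* had 0.02, *Mcm4* 0.01 and *Mcm5* -0.10, and *Mcm3* and *Mcm6* both had 0.36, with intervals that end at 0.79 and 0.84. All 6 tested MCM genes therefore lay under a doubling. *Cdc6*, which loads the helicase, was too low to test, with 5, 3 and 5 counts against 9, 8 and 4 (ratio 1.74, exact 95% interval 0.833 to 3.79). *Pcna* had 323, 247 and 404 counts against 287, 324 and 272, with a log2 fold change of -0.03 (95% interval -0.18 to 0.12). *Rrm1*, the large subunit of ribonucleotide reductase, had 280, 193 and 347 counts against 248, 313 and 229, with 0.06 (95% interval -0.11 to 0.23).

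*Rrm2*, the small subunit of the same enzyme, whose level follows S phase, had 10, 9 and 17 counts in control and 18, 24 and 14 in Pcp2-cre mice. The groups did not overlap in CPM, and its log2 fold change of 0.74 (SE 0.284, 95% interval 0.15 to 1.33) had an adjusted p of 0.143. Exons of *Rrm2* overlap those of *Gm59512* on the opposite strand over 1437 of 3320 bases, so reads of this pair may not have been separated. *Tyms*, thymidylate synthase, had 0.13 (95% interval -0.39 to 0.65). *Rrm2* and *Rrm1* thus had different values within 1 enzyme, but that difference was not tested.

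Among the S, G2 and mitotic cyclins with *Cdk1*, the kinase that starts mitosis, only *Ccna2* and *Ccnb2* passed the filter. *Ccna2*, cyclin A2, had 68, 63 and 86 counts in control and 88, 84 and 77 in Pcp2-cre mice. The groups did not overlap in CPM, and its log2 fold change of 0.31 (SE 0.137, 95% interval 0.02 to 0.59) had an adjusted p of 0.226. *Ccnb2*, cyclin B2, had 29, 19 and 36 counts against 23, 34 and 15, with -0.12 (95% interval -0.62 to 0.39). *Cdk1* itself had 3, 4 and 5 counts against 5, 4 and 5, a ratio of 1.26 with an exact 95% interval of 0.540 to 2.98. *Ccnb1*, cyclin B1, had 4, 1 and 0 counts against 4, 3 and 1 (ratio 1.73, exact 95% interval 0.498 to 6.70), so a change of a few fold was not detectable at this depth.

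The mitotic kinases and checkpoint genes went in both directions, and none was called. *Cdc20*, the activator of the anaphase-promoting complex, had 23, 24 and 23 counts in control and 12, 15 and 8 in Pcp2-cre mice. Every Pcp2-cre mouse lay under every control mouse, and its log2 fold change of -0.89 (SE 0.285, 95% interval -1.49 to -0.30) had an adjusted p of 0.0611. It was called lower without control mouse 3 (adjusted p = 0.0328), with sex as a covariate (adjusted p = 0.0358) and in the fit without a filter (adjusted p = 0.0463). *Bub1b*, the BUBR1 checkpoint protein, had 29, 25 and 50 counts against 56, 58 and 31. The 2 male Pcp2-cre mice lay above all controls and the female did not, and its log2 fold change of 0.59 (SE 0.211) had an adjusted p of 0.107. It was called higher without control mouse 3 (adjusted p = 0.0412), without Pcp2-cre mouse 3 (adjusted p = 0.0443) and in males alone (adjusted p = 0.0101).

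*Aurka*, a centrosome kinase, had 0.18 (95% interval -0.51 to 0.87) and *Plk1*, a kinase of several mitotic steps, 0.07 (95% interval -0.55 to 0.70), both with at most 18 counts in any mouse. *Aurkb*, the kinase of the chromosomal passenger complex, had 0, 0 and 1 counts against 1, 3 and 3, all at or under the floor of 3 counts. *Bub1*, another checkpoint kinase, had 4, 3 and 2 counts against 6, 4 and 3 (ratio 1.56, exact 95% interval 0.616 to 4.13).

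**Figure D3:**
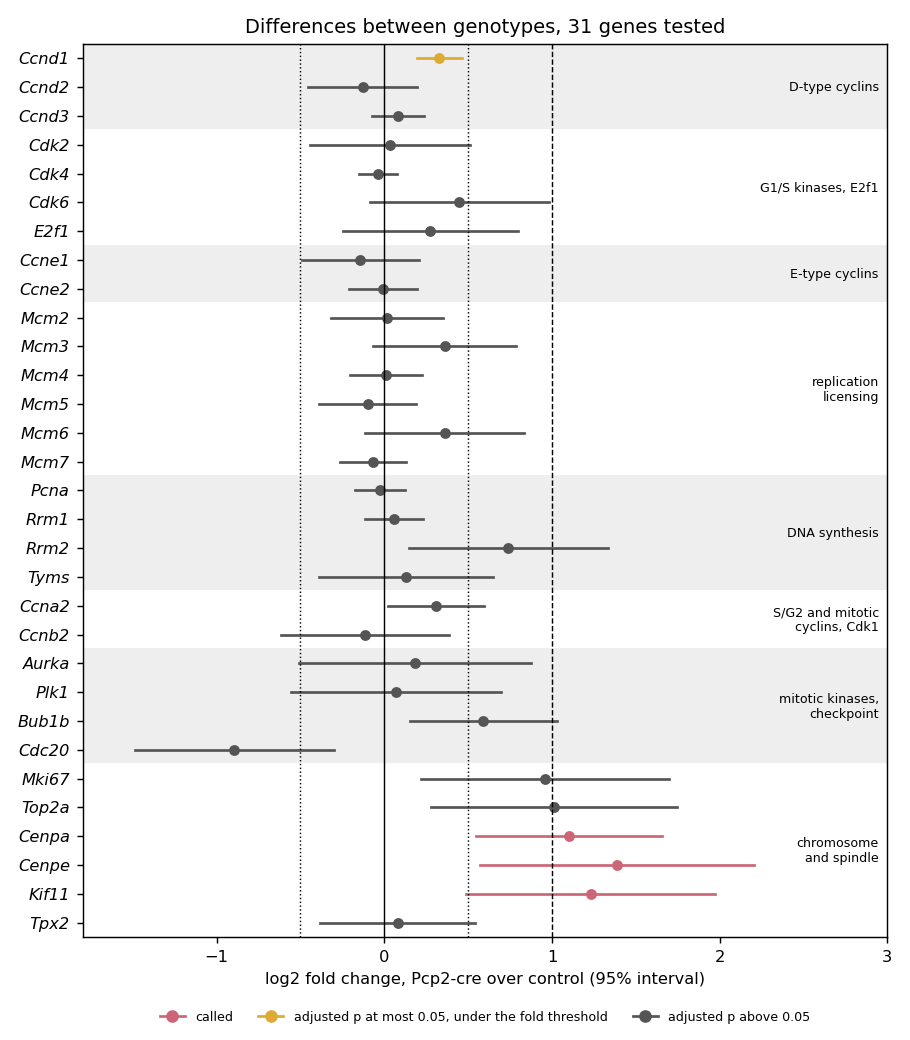
Log2 fold change of Pcp2-cre over control mice with its 95% interval for the 31 tested genes, ordered by role, with dotted lines at the fold threshold of 0.5 in size and a dashed line at a doubling. *Cenpa*, *Cenpe* and *Kif11* are drawn as called, *Ccnd1* passes the adjusted p alone, and the interval of 24 genes ends before a doubling.

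The size of a change that these 6 libraries leave possible differs by role. For 24 of the 31 tested genes the approximate 95% interval ended under a doubling, among them all tested cyclins, G1 and S kinases and MCM genes. These intervals ran somewhat narrow on simulated counts, and that of *Cdk6*, which ends at 0.98, cannot be set apart from a doubling. The 7 genes whose interval holds a doubling are *Rrm2*, *Bub1b*, *Mki67*, *Top2a*, *Cenpa*, *Cenpe* and *Kif11*. *Cdc20* is the only tested member whose interval holds a halving. The genes called higher were not among the abundant ones, and the level of *Cenpa* ranked 20 of 38, that of *Kif11* 29 and that of *Cenpe* 33.

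**Figure D4:**
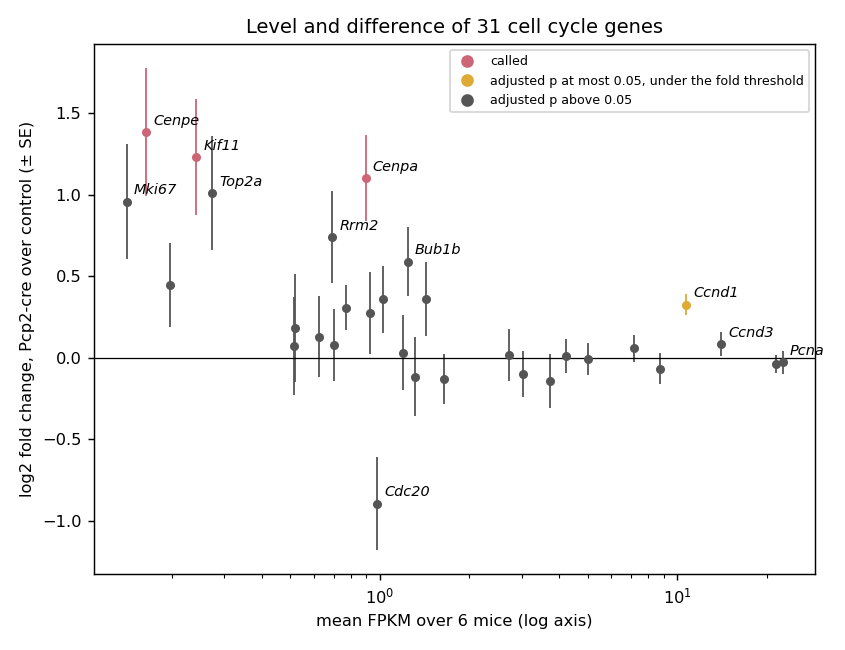
Log2 fold change of Pcp2-cre over control mice (± SE) against the mean FPKM over 6 mice on a log axis, 1 point per tested gene. Every gene with a difference of at least 0.5 in size lies at or under the 1.24 FPKM of *Bub1b*, and the genes from *Mcm2* (2.71 FPKM) upward lie between -0.14 and 0.08 except *Ccnd1* at 0.33.

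The wider cell cycle program gave little more. Of 124 other cell cycle genes, 94 were tested, 0 were called higher and 1 lower, with 10 higher and 4 lower at an unadjusted p under 0.05, for which the shares over all genes were 8.36% and 9.67%. Among them were 55 other genes of G2 and M phase, of which 32 were tested and 23 did not pass the filter. Their median log2 fold change was 0.05, or 0.16 without the filter, and their summed CPM had a ratio of 1.02. The gene called lower was *Nek2*, a centrosome kinase, with 141, 115 and 127 counts in control and 58, 62 and 57 in Pcp2-cre mice. Its log2 fold change was -1.01 (SE 0.147, adjusted p = 5.74e-05 by edgeR), and it was called with each mouse left out and without control mice 1 and 2. At an adjusted p of at most 0.05 whatever the fold, 1 gene was higher, *Pkmyt1* (log2 fold change 0.33, adjusted p = 0.0322), and 2 were lower, *Nek2* and *Wee1* (log2 fold change -0.43, adjusted p = 0.00669), and with 1 mouse left out the adjusted p reached 0.113 for *Pkmyt1* and 0.0545 for *Wee1*. Without control mice 1 and 2 it was 0.340 for *Pkmyt1* and 0.252 for *Wee1*. *Pkmyt1* and *Wee1*, named here after their values were seen, both encode kinases that hold back CDK1. In the fit without a filter *Cenpf*, a kinetochore gene also named after its values were seen, was called higher, with 4, 3 and 0 counts against 6, 18 and 8, and it was also called higher without control mice 1 and 2 (adjusted p = 0.00642 by edgeR).

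The inhibitors of cyclin-dependent kinases, which hold cells out of the cycle, gave no call in the 5 of 7 genes tested. *Cdkn1a* (p21) had a log2 fold change of 0.05 (SE 0.0661) and *Cdkn1b* (p27) 0.03 (SE 0.0443), and both were expressed well above most of the cell cycle genes, at 24.2 and 38.6 FPKM. *Cdkn1c* (p57) had -0.29 (SE 0.206), *Cdkn2c* (p18) -0.02 (SE 0.235) and *Cdkn2d* (p19) -0.18 (SE 0.0963). *Cdkn2a*, a marker of senescent cells, had 1 count in Pcp2-cre mouse 3 and 0 in the other mice. *Cdkn2b* (p15) had 2, 2 and 7 counts in control and 1, 3 and 1 in Pcp2-cre mice.

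Among markers of cells that could divide, those of microglia were the ones mostly called. Microglial genes summed to 121 ± 2.58 CPM in the control and 327 ± 18.2 CPM in the Pcp2-cre group (SD, n = 3 each), a ratio of 2.70, and 8 of 10 were called higher, with *Tmem119* (log2 fold change 0.06) and *P2ry12* (0.28) the exceptions. Of the 10, 6 were called without control mice 1 and 2, with *Aif1* at an adjusted p of 0.0531 and *Itgam* at 0.0879. Oligodendrocyte progenitor genes summed to 163 to 179 CPM against 203 to 218 CPM, and 1 of 10, *Gpr17* of committed precursors, was called higher (log2 fold change 0.61). Of the 10, 9 had a log2 fold change above 0, with a median of 0.20 over the list, and *Pdgfra* had -0.02. *Enpp6* (0.44, adjusted p = 0.0137) and *Sox10* (0.34, adjusted p = 0.0159) were higher by edgeR, under the fold threshold. Leaving out control mice 1 and 2, *Gpr17* fell under the fold threshold (0.48, adjusted p = 0.00295) and *Enpp6* passed it (0.53, adjusted p = 0.0396). Astrocyte and Bergmann glia genes summed to 3097 to 3146 CPM against 3500 to 3584 CPM, with *Gfap* (log2 fold change 1.94) and *Aqp4* (0.51) called higher of 10. *Gfap* alone went from 121 ± 8.54 to 463 ± 34.7 CPM (SD, n = 3 each), most of the gap between the sums. Under the fold threshold, *Gja1* (0.37, adjusted p = 2.65e-06) and *S100b* (0.13, adjusted p = 0.0445) were higher by edgeR. *Slc1a3* (-0.22, adjusted p = 9.95e-05) and *Gdf10* (-0.25, adjusted p = 0.00424) were lower, also under the fold threshold. Endothelial genes summed to 241 to 252 CPM against 258 to 270 CPM, with 0 of 8 called and 1 higher at an unadjusted p under 0.05.

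Genes listed as markers of granule cell progenitors summed to 311 to 338 CPM against 274 to 284 CPM. Of these 8, *Gli1* (log2 fold change -0.60) and *Sfrp1* (-1.14) were called lower. With control mice 1 and 2 left out *Sfrp1* had -0.35 (adjusted p = 0.663) and was not called, whereas *Hhip* was (-0.61, adjusted p = 0.0179). The defining gene *Atoh1* was at 0 counts in all 6 mice. None of 10 leukocyte genes was tested. Their sum was 1.34 to 2.99 CPM in control mice and 2.37 to 5.27 CPM in Pcp2-cre mice, groups that overlap, with a ratio of means of 1.80. In the fit without a filter *S100a9*, a neutrophil gene, was called higher (log2 fold change 1.45, adjusted p = 0.0216), and *Nkg7* was at 0 in every mouse. Purkinje cell genes, of which 6 of 10 were called lower, and granule cell genes, of which 0 of 10 were called, are not from dividing cells, and 2 of the latter were higher at an unadjusted p under 0.05. Of the choroid plexus genes 7 of 10 were tested and 6 were called lower. Without control mice 1 and 2 only *Clic6* was called lower (-2.28), *Ttr* was called higher (2.88, adjusted p = 0.00399), and *Kl*, *Slc4a5*, *Prlr* and *Kcnj13* had 0.85, 0.50, 0.58 and 0.07 and were not called. The part that any of these cell types has in the values of *Cenpa*, *Cenpe*, *Kif11* or *Ccnd1* was not tested.

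**Figure D5:**
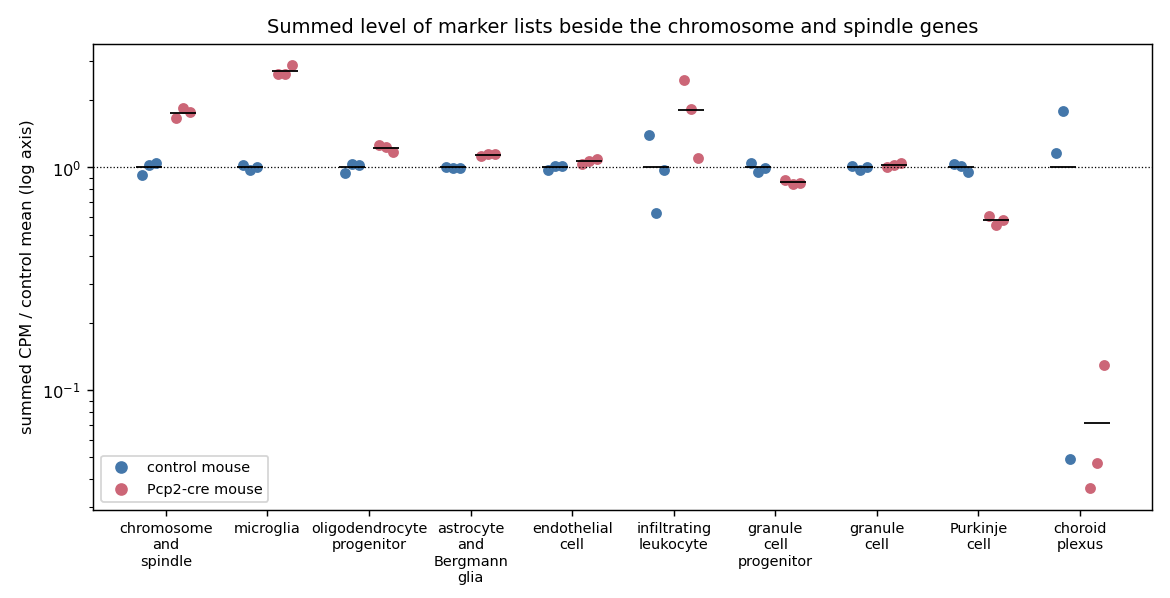
Summed CPM of the chromosome and spindle genes and of 9 marker lists in each mouse, divided by the control mean, on a log axis, with a bar for the mean of 3 mice. Microglial genes stand at 2.70 times and the chromosome and spindle genes at 1.76 times the control mean, and the choroid plexus genes of control mice 1 and 2 stand far above those of the other 4 mice.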

How the data were processed

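Poly A-enriched RNA of 6 cerebella was sequenced as paired reads. After trimming, the authors used STAR for alignment to GRCm39, and featureCounts and StringTie with the Gencode annotation for quantification. Tool versions, the Gencode release and the treatment of strand and of reads with several matches are not given in the sources used here. The deposited values are raw counts per gene, which were tested, and, in a separate table, FPKM values, which were used to rank levels and as an alternative. Total counts were 6733178 to 10178218 per mouse.

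Here the counts were tested with edgeR 4.0.16 under R 4.3.3 (filterByExpr, minimum count 10, TMM scaling, quasi-likelihood test, Benjamini-Hochberg adjustment over 16961 genes), and genes were called at the thresholds of the study's methods. The standard error is the log2 fold change divided by the square root of F. Low genes have an exact binomial interval for the ratio of summed counts at the 95% level. Alternatives used DESeq2 1.42.0, limma 3.58.1 on log2(FPKM + 1) or log2(FPKM + 0.1), other filters and covariates, and each mouse left out. Leaving out both control mice with high choroid plexus genes and using male mice alone were added after the data had been seen. No replicate pair was close enough to be 1 library deposited again (chi-square per gene of 1.35 to 3.39). Scripts were tested on simulated data.

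The members and gene lists were chosen with earlier results of these data known, so no list is tested as a set. All 38 members are named. Of other cell cycle genes, every kinase inhibitor and up to 6 called genes in each direction are named. Exon overlaps came from Gencode M39, and 9 members share at least 150 bases at 95% identity with a pseudogene (BLAST 2.17.0). These are *Ccnb1*, *Ccnd3*, *Cdc6*, *Cdk6*, *Cenpe*, *Mcm7*, *Mki67*, *Pcna* and *Rrm2*, and their values are uncertain to that extent. Exons of 16 members overlap a gene on the opposite strand, among them *Ccnd1*, *Rrm2*, *Ccna2* and *Aurka*, and reads of such pairs may not have been separated. Promoter sequences are from RefSeq.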

Additional observations from a re-analysis of the deposited data

Results flagged for a closer look

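The single female of each genotype went against the males for several members, of which 2 were flagged, *Ccne1* and *Bub1b*. Others not flagged include *Ccnb2*, *Ccnd2* and *Aurka*. *Aurka* had 1.39 CPM in the control and 1.04 CPM in the Pcp2-cre female. Its male values were 1.25 and 1.64 CPM in control and 1.58 and 2.08 CPM in Pcp2-cre mice. For *Ccne1* the log2 ratio of Pcp2-cre over control CPM was 0.32 in the female pair and -0.38 over the 2 males per genotype. For *Bub1b* it was -0.11 in the female pair and 0.94 over the males. With 1 female per genotype the difference between the sexes was not tested.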

How the results depend on the processing

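The count of 3 members called higher fell to 0 with DESeq2's Wald test, with a choroid plexus score as a covariate and with limma on unfiltered log2(FPKM + 1). It was also 0 with at least 10 counts in every mouse, a filter that removes all 3 genes (23 members tested). It was 1 with limma on log2(FPKM + 1) or log2(FPKM + 0.1) and without control mice 1 and 2, and 0 to 3 with 1 mouse left out. In males alone *Cenpa*, *Cenpe*, *Bub1b* and *Top2a* were called higher, and *Kif11* was not. With the score the log2 fold change was 1.03 (adjusted p = 0.101) for *Cenpa*, 0.92 (0.325) for *Cenpe* and 1.42 (0.0931) for *Kif11*, and by DESeq2 1.11 (0.108), 1.40 (0.158) and 1.24 (0.287). The count called lower rose from 0 to 1 (*Cdc20*) by edgeR's likelihood ratio test, without a filter, with a replicate block and with sex as a covariate, and was 0 to 1 with 1 mouse left out. Other cell cycle genes called higher were 1 without a filter or without control mice 1 and 2, and 2 on log2(FPKM + 0.1). Those called lower were 0 on unfiltered log2(FPKM + 1) and 1 to 2 with 1 mouse left out. Over all genes, calls higher were 150 by DESeq2, 105 on unfiltered log2(FPKM + 1), 507 by adjusted p alone and 142 with the log2 threshold raised to 1. Calls lower were 185 on log2(FPKM + 1), 116 without its filter, 805 by adjusted p alone and 94 with the threshold at 1. The members' median log2 fold change was 0.11 by library size alone, 0.26 without a filter (all 38 genes), 0.059 with at least 10 counts, 0.13 with the choroid plexus score, 0.27 on log2(FPKM + 0.1) and 0.14 in males alone. With 1 mouse left out it was 0.081 to 0.176.

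Of 769 single-gene values over 37 genes under an alternative, 66 changed sign, and 13 of these lay over 1 SE from 0 in either fit. These are *Cdk2* (-0.24 without Pcp2-cre mouse 1, with a range of -0.24 to 0.17 over the 6 fits that omit a mouse), *Pcna* (0.051 on unfiltered log2(FPKM + 1)), *Ccnb2* (0.13 and 0.20 on log2(FPKM + 1) and log2(FPKM + 0.1)), *Cdkn1c* (0.083 with the choroid plexus score, 0.10 without control mice 1 and 2), *Cdkn2c* (0.14 on log2(FPKM + 1) with or without a filter, 0.23 on log2(FPKM + 0.1), 0.30 in males alone) and *Cdkn2d* (0.0019 on log2(FPKM + 1) with or without a filter, 0.0021 on log2(FPKM + 0.1)). None passed the test in these fits, and the cause was not tested. The replicate numbers do not pair the mice, since deviations of same-numbered mice correlated at 0.033, 0.050 and 0.145. With the number as a replicate block, members called higher were 2, since *Cenpe* had an adjusted p of 0.0501. Depth limits *Aurkb*, *Ccnb1*, *Bub1*, *Cdk1*, *Cdc6*, *Birc5* and *Kif23*, which had at most 10 counts in any mouse.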
